A study of Mus musculus with 12 samples.

Results

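The genes described here are 10 regulators of cell cycle arrest and the p53 pathway, followed in samples taken as corneal endothelium of the mouse. They were taken by name from a fixed list of such regulators, and all 10 had a value among the 15838 genes of the tables. The corneal endothelium is a single layer of cells on the inner face of the cornea, resting on the Descemet membrane, that pumps fluid out of the stroma and hardly divides in the adult. Corneal endothelial cells (CEC), stripped with the Descemet membrane from C57BL/6 mice 10 weeks old, were profiled by RNAseq in 12 libraries. The groups were *Slc4a11*-/- (KO) males, KO females, *Slc4a11*+/+ (WT) males and WT females, each with 3 libraries. The KO carries a targeted deletion within *Slc4a11*, a solute carrier gene of the corneal endothelium, in every cell of the body, and the WT mice were littermates from heterozygous crosses. The sample records describe pooled membranes and the study's methods describe the membranes of both corneas of a mouse kept as a pair, so whether each library is 1 mouse is not settled.

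The study asked how genotype, sex and their interaction change expression in CEC. The deposited tables answer that with the authors' own fold changes and p-values, which were not used here, and beside them give each gene 1 mean level over all libraries. That mean, in log2 CPM (CPM being read counts scaled to the size of each library), is the measurement described below, so no value of 1 group or 1 library is given and no difference between KO and WT or between the sexes is described. A level given in CPM is 2 raised to the authors' mean log2 CPM. No spread between libraries and no read depth accompany the mean, so no level has an error here, no order between genes was tested, and close levels in an order should be read as unresolved. Over all genes the median level was 13.5 CPM, with quartiles at 2.73 and 43.8 CPM.

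A cell leaves the division cycle when the kinases CDK4, CDK6 and CDK2 are held back. The INK4 proteins block CDK4 and CDK6, the CIP/KIP proteins block mainly CDK2, and RB1 and its relatives then stay bound to E2F factors, so that the genes for DNA replication are not switched on. p53, encoded by *Trp53* in the mouse, adds a brake after DNA damage by switching on *Cdkn1a* and other genes, while MDM2 marks p53 for destruction. Corneal endothelium is known for resting in G1, and p27, the product of *Cdkn1b*, is commonly linked to that arrest.

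The levels were first set against those of all genes, in CPM that are not corrected for length. *Ccng1*, *Cdkn1b*, *Mdm2*, *Trp53*, *Ccnd2* and *Rb1* were above the median of all genes, between 20.2 and 80.8 CPM. *Cdkn1a*, *Ccnd1*, *Cdkn2b* and *Cdkn2c* were between 1.06 and 3.12 CPM. No member lay between *Rb1* at 4.34 log2 CPM and *Cdkn1a* at 1.64 log2 CPM. Of the 10 genes, 6 reached 10 CPM, a level that 55.6% of all genes reached.

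**Figure D1:**
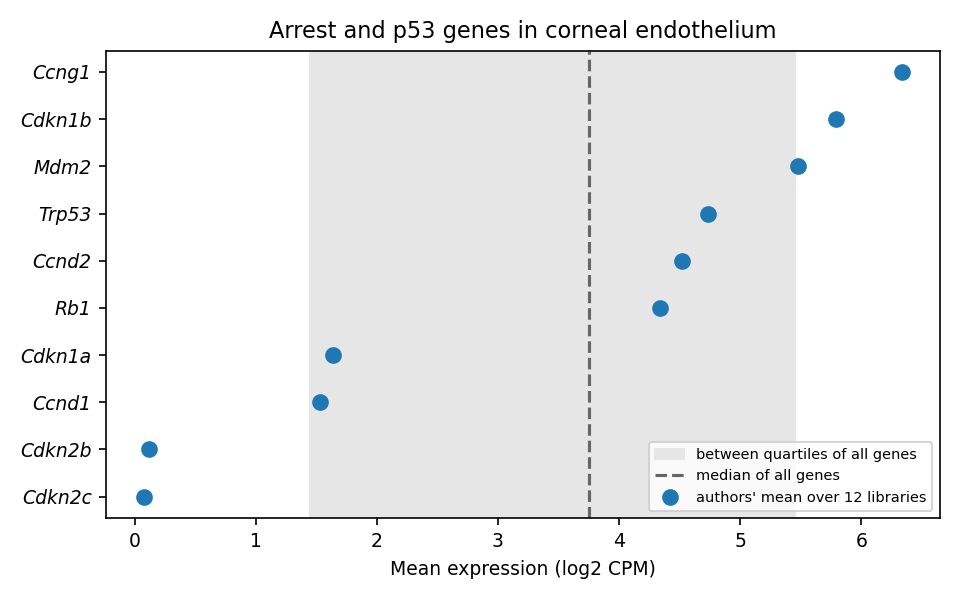
Mean expression in log2 CPM (x axis) of the 10 genes (y axis), each point being the authors' mean over the 12 libraries, with no error available. The shaded band spans the genes between the quartiles of all 15838 genes (1.45 to 5.45 log2 CPM) and the dashed line is their median (3.76 log2 CPM). *Cdkn2b* and *Cdkn2c* lie below the band, and *Ccng1*, *Cdkn1b* and *Mdm2* above it.

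Reads per gene grow with transcript length, so comparisons of 1 gene with another are given as CPM per kb of exon, with the union of all exons annotated in GENCODE M21 on GRCm38. On this scale the order ran from *Ccng1* at 23.0 CPM per kb through *Cdkn1b* (12.2), *Mdm2* (8.78), *Trp53* (6.59), *Rb1* (3.36), *Ccnd2* (2.44), *Cdkn1a* (0.878), *Cdkn2b* (0.781) and *Ccnd1* (0.613) to *Cdkn2c* at 0.393 CPM per kb. The first 4 were above the median of all genes, which was 3.45 CPM per kb. *Rb1* lay just under that median, higher than 49.3% of genes, and *Ccnd2* was higher than 41.5%, although both were above the median by level alone. With the length of the longest transcript in place of the exon union, *Mdm2* (14.2 CPM per kb) came before *Cdkn1b* (12.2) and the order was otherwise the same. With coding length, *Cdkn1b* (93.9 CPM per kb) and *Ccng1* (91.6) were nearly level at the top and *Ccnd2* moved up to 26.5 CPM per kb. The order of the top 3 genes therefore rests on the length used, whereas *Cdkn1a*, *Cdkn2b*, *Ccnd1* and *Cdkn2c* took the last 4 places with each length.

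**Figure D2:**
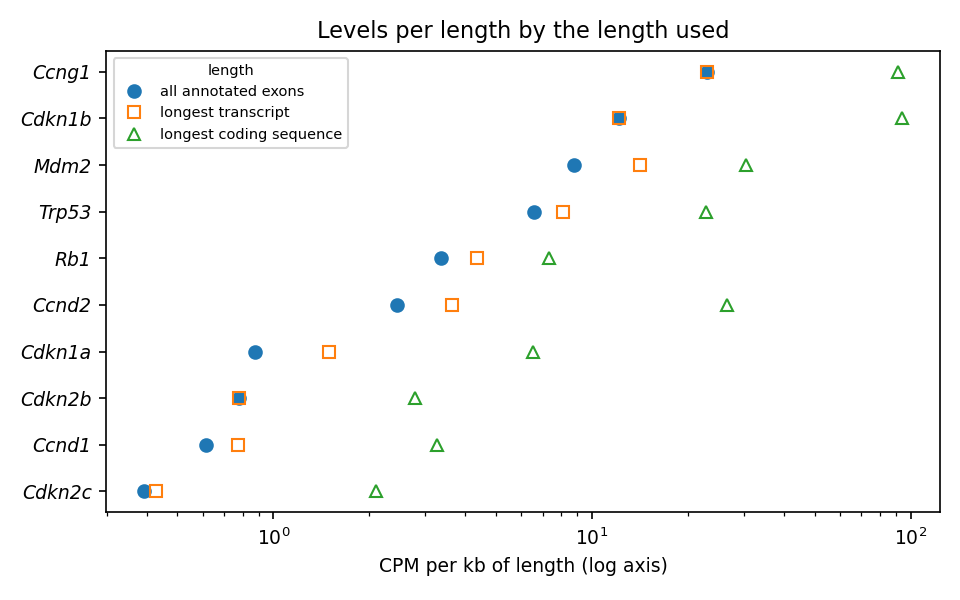
CPM per kb (x axis, log scale) of the 10 genes (y axis), with the length taken as all annotated exons (filled circles), the longest transcript (squares) or the longest coding sequence (triangles). *Cdkn1a*, *Cdkn2b*, *Ccnd1* and *Cdkn2c* are the 4 lowest with each length, and *Ccnd2* moves most against its neighbours.

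Among the CIP/KIP inhibitors, *Cdkn1b* stood well above *Cdkn1a*. *Cdkn1b* (ENSMUSG00000003031), which encodes p27, is annotated on chromosome 6 (134920401 to 134925513, plus strand), with 4552 exonic bases in 3 annotated transcripts. Its mean level was 5.79 log2 CPM, or 55.5 CPM, higher than 79.8% of genes. *Cdkn1a* (ENSMUSG00000023067), which encodes p21, the inhibitor that p53 induces, is annotated on chromosome 17 (29090976 to 29100727, plus strand) and has 3553 exonic bases. Its level was 3.12 CPM, higher than 27.1% of genes. Per kb, *Cdkn1b* was 13.9 times *Cdkn1a* with the exon union, 8.13 times with the longest transcript and 14.4 times with coding length. The third gene of the family, *Cdkn1c*, which encodes p57, was at 14.5 CPM per kb of exon, close to *Cdkn1b* at 12.2. Not corrected for length, *Cdkn1c* was lower, at 29.6 CPM against 55.5 CPM. Other lengths were not taken for *Cdkn1c*, so the order of these 2 genes is unresolved. The SCF ligase that removes p27 uses SKP2 to recognise it, with CKS1B as a helper. *Skp2* was at 0.700 and *Cks1b* at 2.76 CPM per kb, both under the median of all genes, while *Cul1* (17.3), *Rbx1* (6.28) and *Skp1* (114 CPM per kb), shared by many SCF ligases, were above it.

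*Cdkn2b* and *Cdkn2c*, both INK4 inhibitors, were among the lower genes of the tables. *Cdkn2b* (ENSMUSG00000073802), which encodes p15, an inhibitor induced by TGF-β, is annotated on chromosome 4 (89306299 to 89311039, minus strand) in 1 annotated transcript of 1390 bases. *Cdkn2c* (ENSMUSG00000028551), which encodes p18, is annotated on the same chromosome (109660876 to 109667189, minus strand) and has 2686 exonic bases. Their levels were 1.09 CPM for *Cdkn2b* and 1.06 CPM for *Cdkn2c*, higher than 10.4% and 9.93% of genes. Of all genes 91.0% reached 1 CPM and 1431 did not, and how many reads a level near 1 CPM stands for is unknown. The remaining measured INK4 gene, *Cdkn2d*, which encodes p19, was at 2.57 CPM per kb. Per kb it was higher than 42.7% of genes, against 19.6% for *Cdkn2b* and 9.39% for *Cdkn2c*. *Cdkn2a* had no value in the tables analysed here. The measured INK4 genes summed to 3.75 CPM per kb against 27.6 CPM per kb for the CIP/KIP genes, with 3 genes in each sum. With the exon union, *Cdkn2d* made up 68.7% of the INK4 sum and *Cdkn1c* 52.6% of the CIP/KIP sum.

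D cyclins activate CDK4 and CDK6 in G1, and the 3 of them differed in level. *Ccnd1* (ENSMUSG00000070348), on chromosome 7 (144929931 to 144939925, minus strand), was at 2.89 CPM, higher than 25.8% of genes. *Ccnd2* (ENSMUSG00000000184), on chromosome 6 (127125162 to 127152193, minus strand), was at 22.9 CPM, higher than 60.9% of genes. It has the longest exon union of the 10 genes, 9409 bases, and per kb its level was 3.97 times that of *Ccnd1* with the exon union, 4.69 times with the longest transcript and 8.11 times with coding length. *Ccnd3* was above both at 4.35 CPM per kb. Of the partner kinases, *Cdk4* was higher per kb than 80.6% of genes and *Cdk6* than 43.9%. On that scale *Ccnd2* was higher than 41.5% of genes and *Ccnd1* than 15.5%. The cyclins that carry a cell from G1 into S phase were lower, with *Ccne1* at 0.356, *Ccne2* at 0.481 and *Ccna2* at 0.356 CPM per kb, against 2.22 CPM per kb for their kinase *Cdk2*.

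*Rb1* (ENSMUSG00000022105), which encodes the retinoblastoma protein, is annotated on chromosome 14 (73183673 to 73325822, minus strand) and has 6015 exonic bases. It was at 20.2 CPM, higher than 58.2% of genes. Of the RB family, *Rbl2*, which encodes p130, the member typical of resting cells, was the highest at 9.91 CPM per kb, followed by *Rb1* at 3.36 and *Rbl1*, which encodes p107, at 2.38. Among the E2F factors the repressor *E2f4*, the usual partner of p130, was the highest at 19.6 CPM per kb. The activators *E2f1* (0.358) and *E2f2* (0.456) were the lowest of the 6 measured E2F genes, and the activator *E2f3* was at 2.30 CPM per kb. p130 and E2F4 join the MuvB core proteins in the DREAM complex that silences cell cycle genes. Of the MuvB core genes, *Rbbp4* was at 14.8, *Lin37* at 6.61, *Lin52* at 2.96 and *Lin9* at 0.409 CPM per kb, and *Lin54* had no value.

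*Trp53* (ENSMUSG00000059552) is annotated on chromosome 11 (69580359 to 69591873, plus strand), with 4045 exonic bases in 6 annotated transcripts. Its mean level was 4.74 log2 CPM, or 26.6 CPM, higher than 64.1% of genes. Its relative *Trp63*, a marker of basal epithelial cells, was at 0.446 CPM per kb against 6.59 CPM per kb for *Trp53*. *Mdm2* (ENSMUSG00000020184), the ligase for p53 and itself a p53 target, is annotated on chromosome 10 (117688875 to 117710758, minus strand), with 5083 exonic bases in 9 annotated transcripts. It was at 44.7 CPM, higher than 75.4% of genes, and per kb it was 1.33 times *Trp53*. *Mdm4*, which binds and restrains p53, was at 5.15 CPM per kb. Of the 9 regulators of p53 in the list, 7 were at or above the median of all genes per kb. *Usp7*, a deubiquitinase of the MDM2 and p53 circuit, was the highest at 19.7 CPM per kb, and *Chek1*, a checkpoint kinase of S phase, the lowest at 0.257 CPM per kb.

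The p53 target genes did not share 1 level. *Ccng1* (ENSMUSG00000020326), which encodes cyclin G1, a p53 target that acts back on MDM2 and is not a cyclin of the core cycle, is annotated on chromosome 11 (40748552 to 40755311, minus strand) and has 3512 exonic bases. It was at 6.34 log2 CPM or 80.8 CPM, higher than 86.1% of genes, and was the highest of the 10 genes per kb of exon. Per kb it was 26.2 times *Cdkn1a*, another target of the same factor, with the exon union and 15.3 times with the longest transcript, while with coding length the values were 91.6 for *Ccng1* and 6.54 CPM per kb for *Cdkn1a*. *Ccng2*, its relative, was at 1.96 CPM per kb and *Ccni*, which encodes cyclin I, at 25.6. Of 22 p53 target genes in the list, 20 had a value, 11 of them at or above the median of all genes per kb and 9 below. Their median was 4.48 CPM per kb, against 3.45 CPM per kb over all genes. *Plk2*, a kinase of the stress response, was the highest at 38.8 CPM per kb, and *Bbc3*, which encodes the death factor PUMA, the lowest at 0.564 CPM per kb. *Sesn1* (10.5 CPM per kb) and *Ei24* (13.4) were among the higher targets, and *Fas* (1.59) and *Gadd45a* (1.58 CPM per kb) among the lower.

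**Figure D3:**
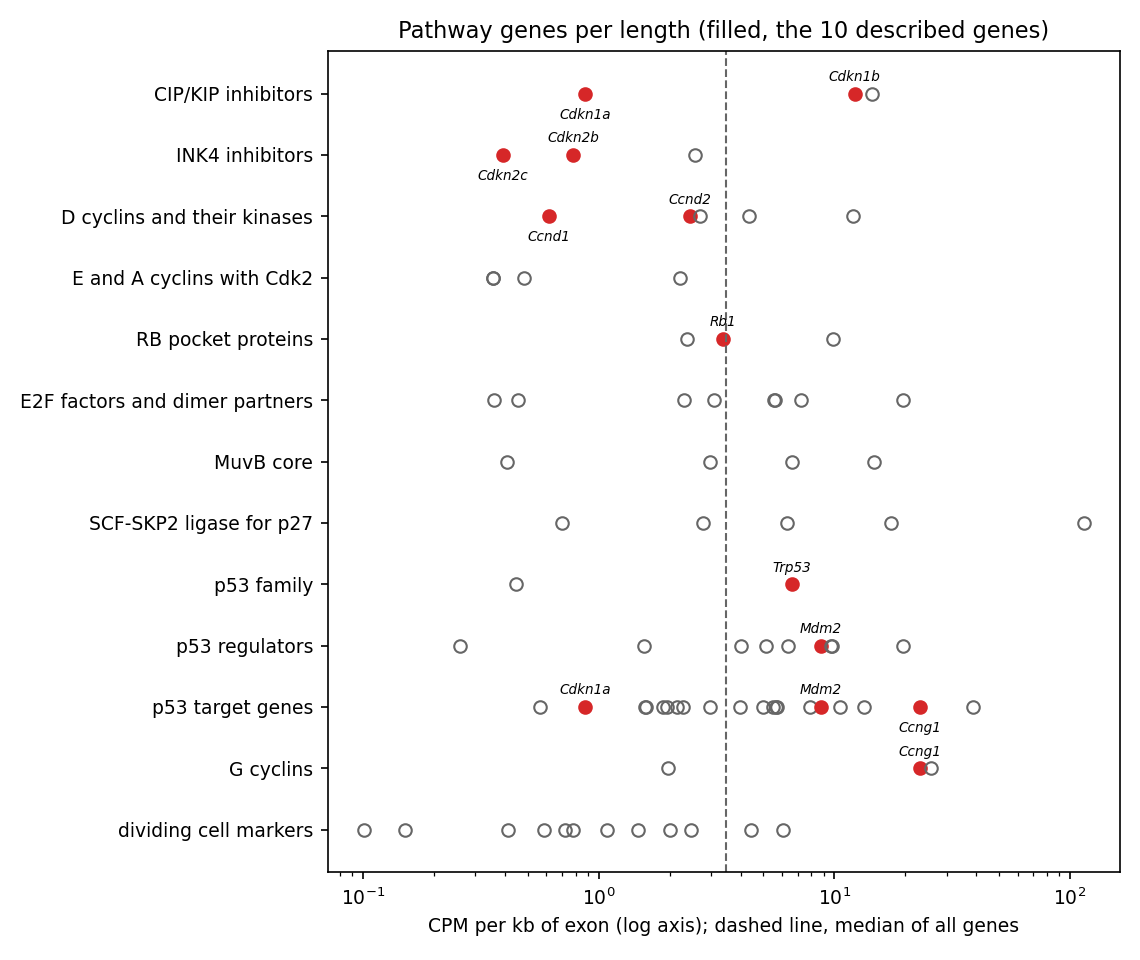
CPM per kb of exon (x axis, log scale) of each measured gene of 13 pathway lists (y axis), with the 10 genes described here filled and named, the other genes open, and the median of all genes (3.45 CPM per kb) dashed. *Cdkn1b* lies with *Cdkn1c* above the median, the INK4 genes lie below it, and the p53 targets spread on both sides.

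Sequence upstream of *Cdkn1a* is shown because it is a textbook target of p53. Windows from 250 bases before to 50 after a start site, from RefSeq on GRCm38.p6, were found for 7 of the 10 genes, 9 windows in all. *Rb1*, *Ccnd1* and *Ccnd2* had none. The consensus p53 site unit of 10 bases was searched on both strands, which for this palindromic motif give the same matches, and 2 such units up to 13 bases apart were counted as a pair. Such a pair occurred in 1 of the 9 windows, that of the first *Cdkn1a* start, and in 0.0731% of 32851 windows of the genome. At least 1 unit was present in 4 of the 9 windows, those of *Mdm2*, *Ccng1* and *Trp53* beside the first of *Cdkn1a*, and in 8.36% of all windows. Only exact matches to the unit were counted and put in capitals. The stretch with the pair lies on the plus strand at chr17:29090892-29090951, with the units in capitals and 12 bases between them. The 10 bases right after the second unit depart from the consensus at 1 base and so stay in small letters.
Cdkn1a: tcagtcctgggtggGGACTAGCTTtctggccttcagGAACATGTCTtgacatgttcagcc
The letters GGGCGG, which make up a GC box, were searched on both strands and were found in 5 of the 9 windows, those of *Cdkn2b*, *Cdkn1b*, *Mdm2* and 1 start each of *Cdkn2c* and *Cdkn1a*, against 35.7% of all windows. These matches are letters in a window and no measure of binding.

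Genes that mark dividing cells were mostly below the median of all genes or without a value. Of 22 such genes, 12 had a value and 2, *Mcm4* and *Pcna*, reached the median of all genes per kb. *Mki67*, the common marker of proliferation, was at 0.151 CPM per kb, and *Top2a*, a topoisomerase of dividing cells, at 0.101 CPM per kb. Replication genes were the higher part of the list, with *Pcna* at 6.06, *Mcm4* at 4.42 and *Mcm6* at 2.45 CPM per kb, and their proteins also serve DNA repair and licensing. *Ccnb1*, *Ccnb2*, *Cdk1*, *Bub1*, *Aurkb*, *Plk1*, *Cdc20*, *Birc5*, *Ube2c* and *Rrm2* had no value in the tables analysed here. What kept a gene from having a value is not given, so a missing value was not read as a low level.

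The labelled tissue was checked against marker genes. All 8 genes of the corneal endothelium list were between 70.3 and 1582 CPM per kb, with *Col8a2*, a collagen of the Descemet membrane, the highest and *Slc4a11* at 335 CPM per kb as a mean over KO and WT. Genes of stromal keratocytes were as high, with a list median of 248 CPM per kb against 204 for the corneal endothelium list. All 6 of 6 were above the median of all genes, with *Dcn* at 650.3 and *Col1a2* at 346 CPM per kb. *Kera*, a proteoglycan typical of keratocytes, was at 150.2 CPM per kb. The levels of the 10 genes are therefore those of a sample with strong stromal signal, not of endothelial cells alone. Corneal epithelium (0.0961 to 15.8 CPM per kb), pigment cells (0.149 to 2.00), leukocytes (0.104 to 15.0) and lens (0.799 to 2.59 CPM per kb) were lower than the corneal endothelium list. Of their genes, *Krt5* (15.8) and *Krt15* (15.2) of the epithelium and *Lyz2* (15.0) and *Cd74* (7.04 CPM per kb) of leukocytes were above the median of all genes. Single genes stood out in the lists for muscle (*Myh11*, 27.1 CPM per kb, 1 of 5 with a value), vascular endothelium (*Kdr*, 9.10 CPM per kb, the other 3 at most 0.389) and nerve (*Mbp*, 6.49 CPM per kb, the other 3 at most 0.614), and the 4 globin genes had no value. The part of stromal or other cells in the levels of the 10 genes was not tested, and in such bulk samples fewer cells of a type and less RNA per cell cannot be told apart.

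**Figure D4:**
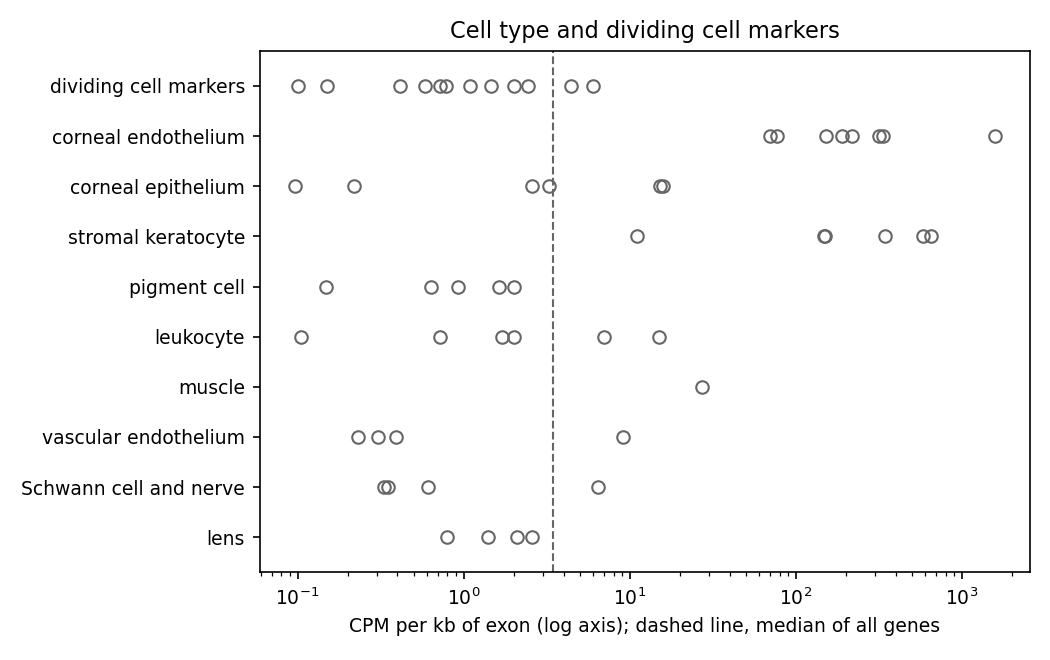
CPM per kb of exon (x axis, log scale) of each measured gene of the dividing cell list and of 9 cell type lists (y axis), with the median of all genes (3.45 CPM per kb) dashed. The genes of corneal endothelium and 5 of the 6 keratocyte genes lie at 70.3 CPM per kb or above, and the dividing cell genes reach at most 6.06 CPM per kb.

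Exons of other annotated genes overlap those of 4 of the 10. On the opposite strand, *Rb1* shares exonic bases with *Lpar6* and *Rcbtb2*, *Ccnd2* with 2 antisense genes, and *Ccnd1* and *Cdkn1a* with 1 gene each. The library kit keeps the strand, but whether the counting used it is not given in the sources used here, and without it reads of both strands cannot be told apart. No gene overlapped the exons of *Cdkn1b*, *Cdkn2b*, *Cdkn2c*, *Trp53*, *Mdm2* or *Ccng1*.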

How the data were processed

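RNA of CEC was made into stranded total RNA libraries, 3 in each of 4 groups, and read from both ends. The authors used Hisat2 on GRCm38, scaled counts to CPM by TMM and applied limma with voom weights. Versions, annotation, counter and any filter on which genes entered the tables are not given in the sources used here (the study's limit of 1 CPM was part of how it defined differential genes, and 1431 genes of the tables have a mean below it). The authors deposited 3 tables, for genotype, sex and the interaction, each with the mean log2 CPM of 15838 genes. The remaining 5 numeric columns of each table (log2 fold change, t, p-value, adjusted p-value and B) are the authors' own comparisons and were not used, so no test was run. The tables used here hold no values per library, so depth, spread and pairing are unknown here. The mean was the same in the 3 tables for all 15838 genes (within 1e-09), and 2 to its power summed to 977011.

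Levels were divided by exon length from GENCODE M21, which held 15824 of the genes. Python 3.11.15, pandas 2.3.3 and numpy 2.4.6 were used, and lengths and ranks were tested on simulated data. Symbols were matched by name, or by a RefSeq synonym for *Skp1*. The named genes are all members, their relatives in 13 pathway lists, and the highest and lowest gene of each list; 10 lists mark cell types. Members and lists were chosen with earlier results of these data known. Alternatives were another table, another length and another background of genes.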

Additional observations from a re-analysis of the deposited data

How the results depend on the processing

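The count of members at or above the median of all genes was 6, and it was also 6 with the mean from the sex or the interaction table and among genes of at least 1 CPM. It was 5 among protein-coding genes and 4 per kb of exon. The count per kb was 4 with the longest transcript and 5 with coding length. The rank of a member moved by over 10 percentage points for *Cdkn1a* (to 16.0%) and *Ccnd1* (to 15.0%) among protein-coding genes, for *Ccnd1* (to 15.5%) and *Ccnd2* (to 41.5%) per kb of exon, and, with coding length against exonic length, for *Cdkn1b* (to 91.3%), *Rb1* (to 32.9%) and *Ccnd2* (to 66.5%). By CPM not corrected for length, 0 of the dividing cell genes and 0 of the E and A cyclins with *Cdk2* reached the median of genes reaching 1 CPM. Against all genes these counts were 2 and 1. Per kb of exon, 0 of the E and A cyclins with *Cdk2* reached the median of all genes. No paired analysis was possible because the tables hold no values per library and no test was run. Leaving out a library was not possible for the same reason, and without depth the precision of levels near 1 CPM is unknown.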
